A study of Mus musculus with 28 samples.

Results

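The genes that control entry into S phase were followed in murine bone marrow-derived macrophages (BMDMs) exposed to von Willebrand factor (VWF) or lipopolysaccharide (LPS). The set was named gene by gene and comprised 10 of the 54532 genes in the count table. It held the D-type cyclins Ccnd1, Ccnd2 and Ccnd3, the E-type cyclins Ccne1 and Ccne2, the kinases Cdk4 and Cdk6, the inhibitors Cdkn1a and Cdkn1b, and the transcription factor Myc. Bulk RNA sequencing was performed on 28 cultures grown with M-CSF from the marrow of adult C57/B6JB mice. At 3.5 h and at 16 h there were 5 cultures incubated with PBS (control), 5 with plasma-derived VWF at 10 µg/ml, and 4 with LPS, a component of the bacterial outer membrane, at 100 ng/ml. All cultures, controls included, were in fresh medium with added calcium chloride. No genotype beyond the strain was given. The labels numbered the cultures as biological replicates without saying what a number stood for, so p values measured the spread between these cultures, part of which may be technical.

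D-type cyclins bind CDK4 or CDK6 and are made in response to growth factors, which for macrophages means M-CSF above all. These complexes phosphorylate the retinoblastoma protein and release E2F factors, which switch on the E-type cyclins and the genes of DNA replication. CDKN1A (p21) and CDKN1B (p27) restrain cyclin-CDK2 complexes, and MYC drives growth and can repress CDKN1A. Bacterial products are known to halt the M-CSF-driven proliferation of macrophages in G1.

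In the GENCODE M21 annotation of GRCm38 the D-type cyclin genes lie at chr7:144929931-144939925 (Ccnd1, ENSMUSG00000070348, minus strand), chr6:127125162-127152193 (Ccnd2, ENSMUSG00000000184, minus strand) and chr17:47505051-47599691 (Ccnd3, ENSMUSG00000034165, plus strand), and the E-type cyclin genes at chr7:38097984-38107534 (Ccne1, ENSMUSG00000002068, minus strand) and chr4:11191351-11204779 (Ccne2, ENSMUSG00000028212, plus strand). The kinase genes lie at chr10:127063534-127067920 (Cdk4, ENSMUSG00000006728, plus strand) and chr5:3341485-3531008 (Cdk6, ENSMUSG00000040274, plus strand), the inhibitor genes at chr17:29090976-29100727 (Cdkn1a, ENSMUSG00000023067, plus strand) and chr6:134920401-134925513 (Cdkn1b, ENSMUSG00000003031, plus strand), and Myc at chr15:61985391-61990374 (Myc, ENSMUSG00000022346, plus strand). All 10 are protein coding, and counts were summed over each gene.

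Total counts per culture lay between 41131209 and 77699206. All 10 macrophage markers, among them Csf1r, Adgre1 and Lyz2, reached 10 TPM (a level normalised to length and depth) in every group, and the markers of T and NK cells summed to at most 0.779 TPM in any culture. The B cell list summed to between 20.1 and 40.6 TPM in controls and to between 2.62 and 6.49 TPM with LPS at 16 h. The dendritic cell list summed to between 0.654 and 1.17 TPM in controls. At 3.5 h it summed to between 8.50 and 10.2 TPM with VWF and between 10.7 and 12.3 TPM with LPS. At 16 h it summed to between 0.910 and 3.09 TPM with VWF and between 14.9 and 22.7 TPM with LPS. Of this list only Xcr1 reached 10 TPM with LPS at 3.5 h, and only Xcr1 and Ccr7 at 16 h. Xcr1 was at 0.485 CPM in controls, 13.4 CPM with VWF and 23.1 CPM with LPS at 3.5 h. Flt3 and Siglech had group means of at most 0.0831 and 0.223 CPM. The neutrophil list summed to between 0.592 and 14.2 TPM in controls, between 6.27 and 22.2 TPM with VWF and between 6.85 and 15.6 TPM with LPS at 3.5 h, and to between 1.14 and 7.33 TPM, between 8.61 and 17.4 TPM and between 2.85 and 6.59 TPM in that order at 16 h. Camp, named after its values were seen and the only gene of that list tested between VWF and control at 16 h, rose with a log2 fold change of 3.65 (SE 0.86). It passed the filter of 10 TPM only through the VWF cultures, so its entry depended on its being high there. Erythroid and mast cell lists summed to at most 2.40 and 4.67 TPM. Stromal markers ranged between 3.71 and 140.5 TPM over the cultures. The part of such cells in the results was not tested, and in bulk RNA fewer cells of a type and less RNA per cell cannot be told apart. Replicate 5 of the controls at 16 h stood apart from its group, with a score of -28.8 on the second principal component against -8.77 to -5.90 in the other 4. Where leaving it out changed a call or a sign for the 10 genes, the value without it is given as well.

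A gene was tested in a comparison when at least 1 culture reached 10 TPM. It was called when edgeR's quasi-likelihood test, adjusted by Benjamini and Hochberg's method, gave a p under 0.05 and the absolute log2 fold change was over 1. Only called genes are said to have risen or fallen, and every adjusted p below comes from this test. VWF at 3.5 h called 4 of the 9 genes tested, against 14.7% of all genes tested. Of these, 1 was higher (9.1% of all genes) and 3 were lower (5.59%). At 16 h VWF called 0 of 9, against 8.71% of all genes (4.55% higher and 4.15% lower). By adjusted p alone, 2 were higher (13.1% of all genes) and 3 lower (14.7%). Without control replicate 5 the count at 16 h was 2, for Cdk6 and Myc, and DESeq2 called 0 with all cultures.

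LPS at 3.5 h called 6 of 10 genes, against 24.5% of all genes. There were 3 higher (12.8% of all genes) and 3 lower (11.8%). At 16 h LPS again called 6 of 10, against 27.6% of all genes, with 3 higher (15.3%) and 3 lower (12.4%). VWF and LPS were set against the same control cultures, so the effects share them. For the remarks on overlap that follow, the cultures of the groups did not overlap for 34.7% of all genes with VWF and 54.1% with LPS at 3.5 h, and for 25.9% and 47.1% at 16 h.

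The filter decided which genes could be called. Ccnd2 reached 10 TPM only in LPS cultures, at 16 h in replicate 1 alone (12.02 TPM), so its entry depended on its being high there. Other genes were under 10 TPM in every treated culture and entered through the controls, where their TPM was higher. With VWF these were Ccnd3, Ccne1 and Ccne2 at 3.5 h and Cdk6 at 16 h, and with LPS Ccnd3, Ccne2, Cdkn1b and Myc at 3.5 h and Ccne1, Ccne2, Cdk6 and Myc at 16 h. Ccne2 at 3.5 h passed through control replicates 1 (13.1 TPM) and 4 (10.5 TPM), and reached at most 3.91 TPM with VWF. With edgeR's filterByExpr in place of this filter all 10 genes were tested. It called 5 with VWF at 3.5 h (14.8% of all genes), 0 with VWF at 16 h (9.47%), 6 with LPS at 3.5 h (27.5%) and 5 with LPS at 16 h (27.9%).

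The stretches upstream of Ccne1 and Cdk4 are shown because GC boxes and E-boxes, which SP1 and the MYC-MAX pair can bind, were frequent there. RefSeq gave windows on GRCm38.p6 for Ccnd3, Ccne1, Cdk4, Cdk6, Cdkn1a and Cdkn1b, 6 of the 10 genes, and each stretch is printed 5′ to 3′ up to the first base of an annotated exon. That of Ccne1 lies on the minus strand at chr7:38107535-38107740, with GGGCGG on either strand in capitals. That of Cdk4 lies on the plus strand at chr10:127063285-127063533, with CACGTG in capitals.
Ccne1: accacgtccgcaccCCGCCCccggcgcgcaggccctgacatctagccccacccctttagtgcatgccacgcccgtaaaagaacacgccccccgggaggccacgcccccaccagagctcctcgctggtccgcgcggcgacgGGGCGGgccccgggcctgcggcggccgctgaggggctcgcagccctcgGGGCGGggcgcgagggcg
Cdk4: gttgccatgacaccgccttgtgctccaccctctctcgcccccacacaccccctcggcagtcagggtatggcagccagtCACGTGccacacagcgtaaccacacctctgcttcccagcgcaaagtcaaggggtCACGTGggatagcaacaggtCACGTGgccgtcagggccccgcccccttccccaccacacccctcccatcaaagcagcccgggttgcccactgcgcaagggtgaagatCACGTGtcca
In the 250 bases upstream of the start, Cdk4 held 4 matches to CACGTG, counted once each because it reads the same on both strands. At least 1 match was present in 6.02% of 32851 RefSeq promoters and at least 4 in 0.0213%. Cdk6 held 1 match, and Ccnd3, Ccne1, Cdkn1a and Cdkn1b held 0. Ccne1 held 4 matches to GGGCGG, of which the last reaches into the exon and is not shown. At least 1 GGGCGG was present in 32.7% of promoters and at least 4 in 4.09%. The windows of Cdk4 and Cdkn1b held 1 match each and that of Cdk6 held 0, and the 2 windows each of Ccnd3 and Cdkn1a held 2 and 1, and 0 and 2. TGANTCA (6.75% of promoters) and TTTCGCGC or TTTGGCGC (0.654%) matched in 0 of these windows on either strand. An NF-kappaB pattern, GGG and TCC with any 4 bases between them, was present in 16.5% of promoters and matched once in 1 window each of Ccnd3 and Cdkn1a, the latter lying wholly in annotated exons. A match describes the letters only.

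**Figure D1:**
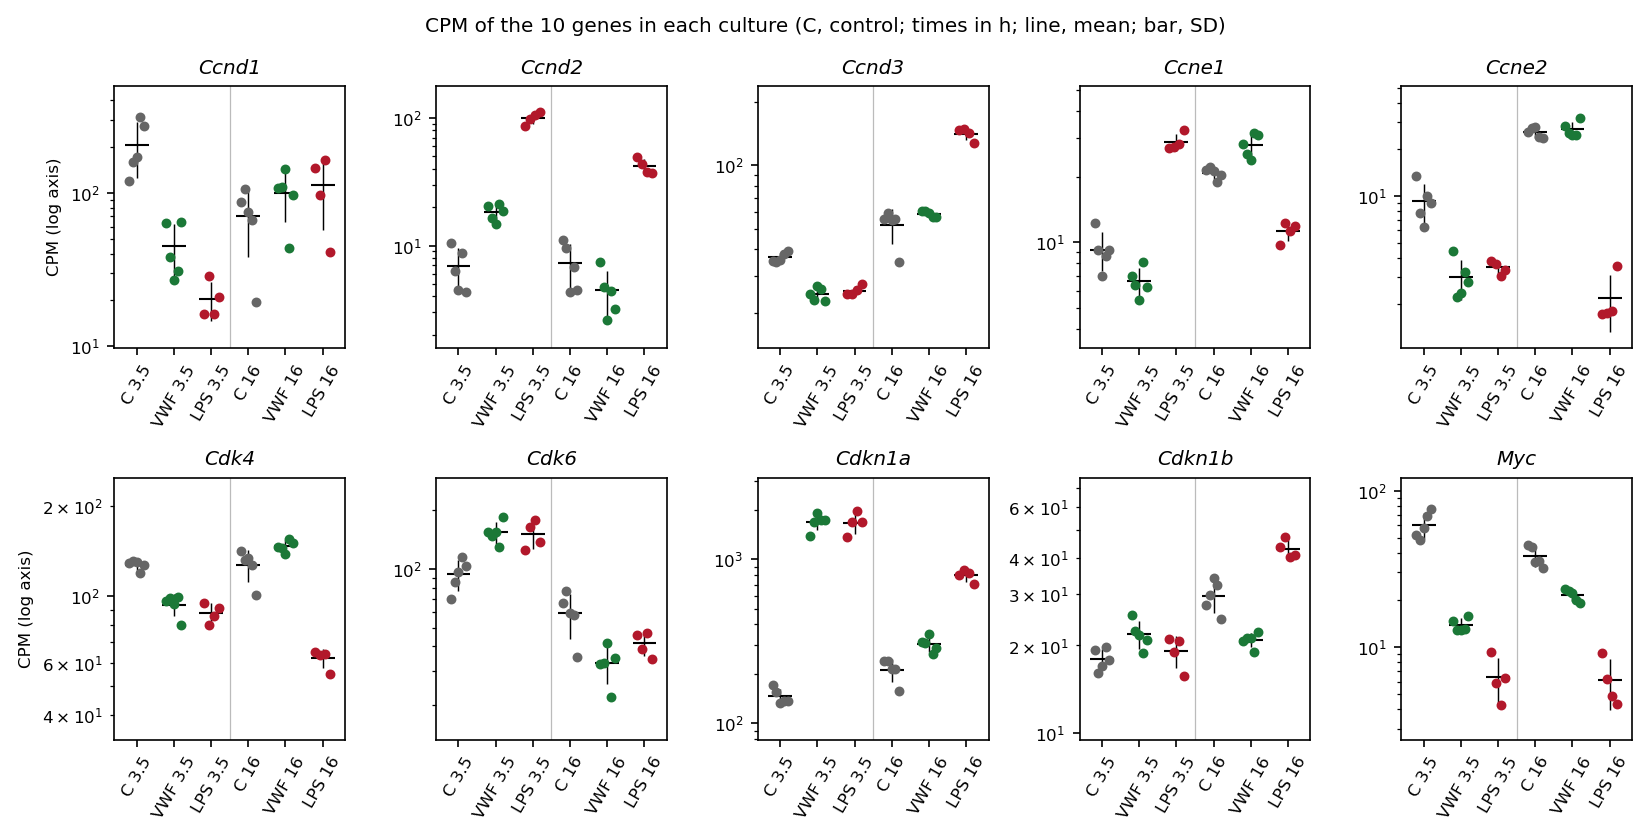
CPM (counts scaled to library size multiplied by its TMM factor) of the 10 genes in each of the 28 cultures on log axes, by treatment and time, with a point per culture, a line at the group mean and a bar for the SD. Cdkn1a has group means of 1695 and 1672 CPM with VWF and LPS at 3.5 h, Ccnd2 is highest with LPS, and Myc is lowest with LPS at both times.

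Ccnd1, the D-type cyclin most tied to M-CSF signalling, fell with both agonists at 3.5 h. Its level in control cultures was 119, 158, 171, 310.3 and 272 CPM in replicates 1 to 5. With VWF it was 63.6, 37.8, 27.04, 30.95 and 64.1 CPM and with LPS 16.1, 28.4, 16.1 and 20.9 CPM. Every control culture lay above every treated one, while the VWF and LPS cultures overlapped. The drop was 4.81-fold with VWF (log2 fold change -2.27, SE 0.33, adjusted p = 0.000177) and 10.3-fold with LPS (log2 fold change -3.36, SE 0.31, adjusted p = 2.69e-06). At 16 h the controls read 86.8, 105, 74.5, 66.2 and 19.4 CPM, the VWF cultures 107, 109, 142, 43.9 and 97.1 CPM and the LPS cultures 145, 96.8, 164 and 41.2 CPM. All groups overlapped at 16 h. The log2 difference from control was 0.39 (SE 0.40, adjusted p = 0.557) with VWF and 0.63 (SE 0.48, adjusted p = 0.301) with LPS, or 0.15 and 0.39 without control replicate 5. LTO1 on the opposite strand overlaps 23.4% of the exon bases of Ccnd1, and since the strand setting of the counting is not known here, reads from that stretch cannot be told apart.

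Ccnd2, a D-type cyclin of blood cells in particular, rose with LPS. It stood at 86.8, 97.5, 106 and 111 CPM with LPS at 3.5 h and at 10.6, 6.28, 4.51, 8.73 and 4.32 CPM in controls. At 16 h it was at 49.02, 43.2, 37.6 and 37.1 CPM with LPS and at 11.1, 9.51, 4.35, 6.85 and 4.51 CPM in controls. The groups were far apart at both times, by 13.97-fold at 3.5 h (log2 fold change 3.80, SE 0.27, adjusted p = 3.35e-07) and 5.61-fold at 16 h (log2 fold change 2.49, SE 0.29, adjusted p = 7.1e-05). With VWF at 3.5 h Ccnd2 was at 20.3, 16.4, 14.8, 21.3 and 18.8 CPM, above every control but below 10 TPM, and with filterByExpr it rose (log2 fold change 1.38, SE 0.24, adjusted p = 0.000655). With VWF at 16 h it was between 2.62 and 7.46 CPM and overlapped the controls (with filterByExpr, log2 fold change -0.74, SE 0.34, adjusted p = 0.159). Antisense genes overlap 7.87% of its exon bases.

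Ccnd3, the third D-type cyclin, was lower with both agonists early and rose late with LPS. At 3.5 h the controls lay between 34.9 and 39.5 CPM, the VWF cultures between 22.6 and 26.9 CPM and the LPS cultures between 24.5 and 27.4 CPM. Neither treated group overlapped the controls, with log2 differences of -0.66 (SE 0.070, adjusted p = 1.16e-05) and -0.57 (SE 0.076, adjusted p = 6e-05) that were under the fold threshold. At 16 h Ccnd3 was at 146, 148, 142 and 128 CPM with LPS, at 55.9, 59.4, 55.2, 55.4 and 34.997 CPM in controls and between 56.6 and 61.01 CPM with VWF. The LPS cultures stood above all others, 2.64-fold over control (log2 fold change 1.40, SE 0.14, adjusted p = 2.1e-05). With library size scaling the log2 difference was 0.83 and not called. VWF and control overlapped, with a log2 difference of 0.063 (SE 0.13, adjusted p = 0.784), which was -0.044 without control replicate 5.

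Per length, the make-up of the D-type cyclin pool differed between the groups. Length was that of all annotated exons of a gene merged, 4709 bases for Ccnd1, 9409 for Ccnd2 and 8775 for Ccnd3. The length of the transcripts expressed was not known, and the shares rest on this choice. In controls at 3.5 h Ccnd1 held 88.9% ± 3.83 (SD, n = 5) of the summed TPM of the 3 genes and Ccnd2 1.73% ± 1.15. With VWF at 3.5 h Ccnd1 held 64.7% ± 9.25 (n = 5) and Ccnd2 14.2% ± 3.28. With LPS at 3.5 h Ccnd1 held 24.005% ± 5.17 (n = 4) and Ccnd2 59.7% ± 4.19, which made Ccnd2 the most abundant of the 3. At 16 h Ccnd1 led in the group means, with 65.96% ± 10.4 in controls, 72.8% ± 9.01 with VWF and 50.7% ± 13.7 with LPS, where Ccnd3 held 38.7% ± 10.9. In CPM, which takes no account of length, Ccnd3 was above Ccnd1 with LPS at 16 h (means of 141 and 112). The pool summed to 164 ± 69.9 TPM in controls at 3.5 h, to 39.2 ± 15.1 TPM with VWF and to 35.9 ± 4.79 TPM with LPS. TPM, unlike CPM, was not scaled by TMM factors. At 3.5 h these lay between 1.11 and 1.24 in controls, 0.899 and 1.07 with VWF and 0.752 and 0.844 with LPS. The sums are therefore not on the scale of the tests, while shares within a culture are unaffected. These shares are a description and were not tested.

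**Figure D2:**
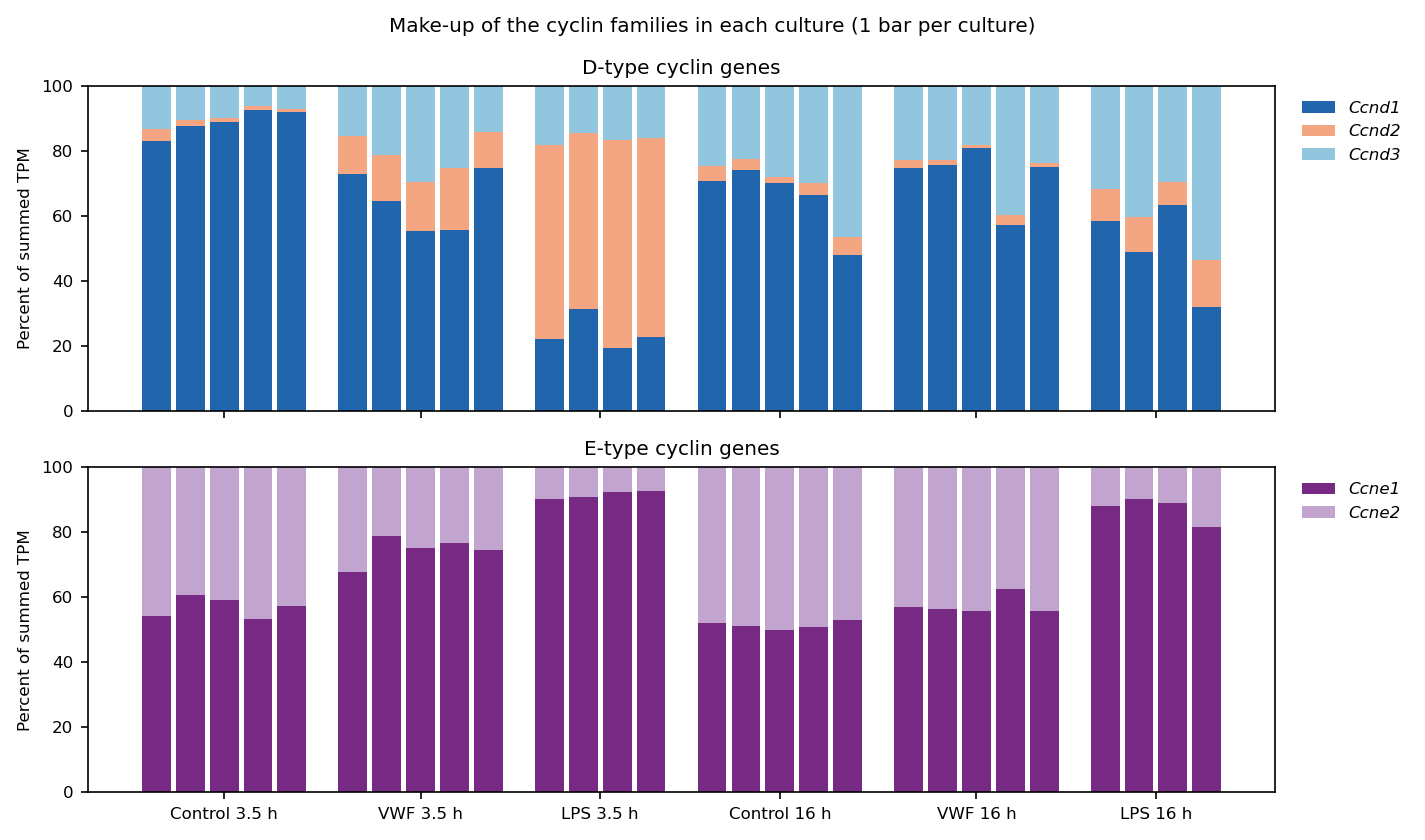
Share of each gene in the summed TPM of the D-type cyclins (top) and of the E-type cyclins (bottom), in percent, with a bar per culture, grouped by treatment and time. Ccnd2 takes 59.7% on average with LPS at 3.5 h against 1.73% in controls, and Ccne1 takes 91.6% of its family against 56.9%.

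Ccne1, whose stretch of GC boxes is shown above, encodes a cyclin that activates CDK2 at the G1/S boundary. At 3.5 h it was at 27.1, 27.3, 28.1 and 32.5 CPM with LPS, at 12.2, 9.19, 6.97, 8.61 and 9.18 CPM in controls and at 7.02, 6.33, 5.43, 8.14 and 6.24 CPM with VWF. The LPS cultures lay above all others, and VWF and control overlapped. Ccne1 rose 3.004-fold with LPS (log2 fold change 1.59, SE 0.16, adjusted p = 6.58e-06), and with VWF it was lower by less than the fold threshold (log2 fold change -0.57, SE 0.18, adjusted p = 0.0222). At 16 h it was between 9.75 and 12.3 CPM with LPS, between 18.9 and 22.1 CPM in controls and between 23.9 and 31.8 CPM with VWF. LPS thus lay below all controls and VWF above them. The log2 differences were -0.92 (SE 0.10, adjusted p = 4.81e-05) with LPS and 0.32 (SE 0.10, adjusted p = 0.0393) with VWF, both under the fold threshold.

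Ccne2, the other E-type cyclin and a known E2F target, fell with both agonists at 3.5 h and with LPS at 16 h. Controls at 3.5 h were at 13.6, 7.78, 6.35, 9.93 and 8.95 CPM, VWF cultures at 4.40, 2.23, 2.35, 3.22 and 2.78 CPM and LPS cultures at 3.83, 3.63, 3.06 and 3.32 CPM. Both treated groups lay below every control. The drop was 3.29-fold with VWF (log2 fold change -1.72, SE 0.26, adjusted p = 0.000234) and 2.79-fold with LPS (log2 fold change -1.48, SE 0.24, adjusted p = 0.000233). At 16 h the controls were between 23.6 and 28.01 CPM, the VWF cultures between 24.8 and 32.1 CPM and the LPS cultures at 1.73, 1.74, 1.80 and 3.53 CPM. VWF and control overlapped, with a log2 difference of -0.041 (SE 0.094, adjusted p = 0.809), and LPS lay 11.98-fold below control (log2 fold change -3.58, SE 0.26, adjusted p = 2.63e-06). Ints8 on the opposite strand overlaps 17.4% of its exon bases. Of the summed TPM of both E-type cyclins, Ccne1 held 56.9% ± 3.21 in controls, 74.6% ± 4.22 with VWF and 91.6% ± 1.21 with LPS at 3.5 h, and 51.4% ± 1.26, 57.5% ± 2.85 and 87.2% ± 3.93 at 16 h.

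Cdk4 and Cdk6, the kinases that D-type cyclins activate, differed from control in opposite directions at 3.5 h, by less than the fold threshold. Cdk4, whose E-boxes are shown above, was between 119 and 131 CPM in controls, between 80.3 and 99.04 CPM with VWF and between 79.9 and 95.01 CPM with LPS. Cdk6 was at 69.7, 85.8, 96.8, 114 and 103 CPM in controls, at 154, 147, 155, 129 and 183 CPM with VWF and at 125, 164, 178 and 136 CPM with LPS. For both genes the treated cultures did not overlap the controls. With VWF and LPS in turn, the log2 differences were -0.53 (SE 0.075, adjusted p = 0.000121) and -0.58 (SE 0.084, adjusted p = 0.000101) for Cdk4, and 0.63 (SE 0.13, adjusted p = 0.00178) and 0.64 (SE 0.13, adjusted p = 0.00147) for Cdk6. At 16 h Cdk4 was at 65.2, 63.7, 63.9 and 55.1 CPM with LPS and at 142, 132, 134, 127 and 101 CPM in controls. It fell 2.10-fold (log2 fold change -1.07, SE 0.11, adjusted p = 2.03e-05), close to the threshold, and was -0.99 and not called with filterByExpr. With VWF at 16 h Cdk4 was between 138 and 156 CPM and overlapped the controls, with a log2 difference of 0.10 (SE 0.095, adjusted p = 0.512), or 0.034 without control replicate 5. Tspan31 on the opposite strand overlaps 19.7% of its exon bases.

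Cdk6 at 16 h was lower with both agonists, again by less than the fold threshold. Controls read 66.5, 77.1, 59.1, 57.8 and 35.5 CPM, VWF cultures 32.5, 32.9, 41.5, 22.2 and 34.7 CPM and LPS cultures 45.8, 39.01, 46.8 and 34.6 CPM. Control replicate 5 was the only control within the range of the treated cultures. The log2 difference with VWF was -0.97 (SE 0.21, adjusted p = 0.00506), and -1.10 and called without that culture, as it was without VWF replicate 3 (-1.05). With LPS it was -0.54 (SE 0.20, adjusted p = 0.0434), and -0.68 without it. Per length Cdk4 was the more abundant kinase, with 85.4% ± 2.68 of the summed TPM of both in controls at 3.5 h, 72.3% ± 4.27 with VWF, 71.5% ± 4.59 with LPS, and 95.1% ± 1.18 with VWF at 16 h. This order rests on merged exon lengths of 13989 bases for Cdk6 and 3249 for Cdk4. In CPM, without length, Cdk6 was above Cdk4 at 3.5 h with VWF (means of 154 and 93.7) and LPS (151 and 88.1).

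Cdkn1a, which encodes p21, rose with both agonists at 3.5 h and with LPS at 16 h. Controls at 3.5 h were at 170.1, 156, 132, 136 and 136 CPM, VWF cultures at 1395, 1682, 1921, 1731 and 1744 CPM and LPS cultures at 1358, 1686, 1969 and 1676 CPM. Both treated groups covered much the same range, far above the controls. The rise was 10.9-fold with VWF (log2 fold change 3.45, SE 0.12, adjusted p = 2.83e-09) and 11.04-fold with LPS (log2 fold change 3.47, SE 0.14, adjusted p = 3.18e-09). At 16 h controls were at 239, 239, 214, 214 and 156 CPM, VWF cultures at 311, 309, 351, 264 and 288 CPM and LPS cultures at 799, 859, 822 and 705 CPM. No group overlapped another at 16 h. With LPS Cdkn1a was 3.66-fold above control (log2 fold change 1.87, SE 0.13, adjusted p = 1.77e-06), and with VWF the log2 difference was 0.41 (SE 0.12, adjusted p = 0.03), under the fold threshold. By mean TPM it was the most abundant of the 10 transcripts in every group but the controls at 3.5 h. There it was at 136 ± 18.9 TPM, after Ccnd1 at 147 ± 68.3 TPM. At 3.5 h it was at 1269 ± 102 TPM with VWF (n = 5) and at 939.5 ± 130.1 TPM with LPS (n = 4). TPM was not scaled by TMM factors, and in CPM, which was, the means were 1695 with VWF and 1672 with LPS. In controls at 16 h it was at 188 ± 49.3 TPM.

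Cdkn1b, which encodes p27 and is linked to quiescence, was not called against control. At 3.5 h the controls lay between 16.1 and 19.8 CPM, the VWF cultures between 18.9 and 25.5 CPM and the LPS cultures between 15.7 and 21.1 CPM, and all groups overlapped. At 16 h it was at 43.7, 47.5, 40.4 and 40.9 CPM with LPS, at 27.5, 29.8, 34.2, 32.4 and 24.7 CPM in controls and at 20.8, 21.2, 21.2, 18.96 and 22.2 CPM with VWF. LPS lay above the controls and VWF below them. The log2 differences were 0.50 (SE 0.11, adjusted p = 0.00263) with LPS and -0.62 (SE 0.093, adjusted p = 0.000512) with VWF, under the fold threshold. The direction with LPS flipped with library size scaling, which gave -0.069 and moved the median of all genes to -0.59.

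Myc fell with both agonists at 3.5 h and with LPS at 16 h. Controls at 3.5 h were at 52.5, 48.7, 57.4, 69.3 and 76.1 CPM, VWF cultures at 14.7, 12.9, 12.9, 13.1 and 15.9 CPM and LPS cultures at 9.29, 5.86, 4.24 and 6.33 CPM. No group overlapped another, and the drop was 4.62-fold with VWF (log2 fold change -2.21, SE 0.13, adjusted p = 1.24e-07) and 9.66-fold with LPS (log2 fold change -3.27, SE 0.23, adjusted p = 3.12e-07). At 16 h the controls were at 45.3, 43.9, 35.02, 35.7 and 32.04 CPM, the VWF cultures at 23.4, 22.9, 22.3, 19.9 and 19.1 CPM and the LPS cultures at 9.22, 6.24, 4.89 and 4.30 CPM. Again no group overlapped another. The fall with LPS was 6.35-fold (log2 fold change -2.67, SE 0.25, adjusted p = 1.55e-05). With VWF the log2 difference was -0.95 (SE 0.12, adjusted p = 0.00013), under the fold threshold, and -1.001 and called without control replicate 5. No annotated gene overlaps the exons of Myc, Ccne1 or Cdkn1b, and genes on the opposite strand overlap 2.63%, 4.11% and 7.68% of the exon bases of Cdk6, Ccnd3 and Cdkn1a.

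**Figure D3:**
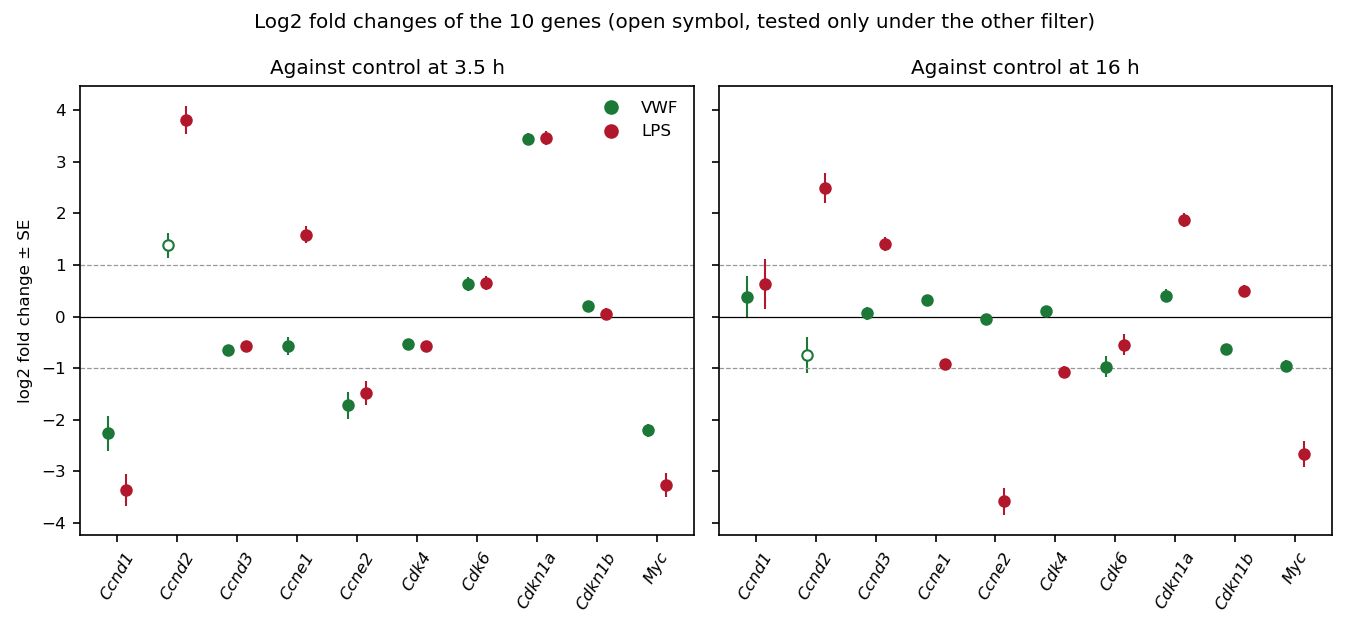
Log2 fold change ± SE of the 10 genes with VWF (green) and LPS (red) against control at 3.5 h (left) and 16 h (right), with dashed lines at the fold threshold and open symbols for Ccnd2 with VWF, which was tested only with filterByExpr. At 3.5 h Cdkn1a lies at 3.45 and 3.47, and at 16 h the VWF values lie within the dashed lines while LPS reaches -3.58 for Ccne2.

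VWF and LPS were then compared with each other. At 3.5 h 4 of the 8 genes tested were called, against 11.4% of all genes, 2 higher (4.71%) and 2 lower (6.71%) with VWF. Ccnd1 and Myc were higher with VWF, by 1.12 (SE 0.31, adjusted p = 0.013) and 1.09 (SE 0.22, adjusted p = 0.00201) on the log2 scale. Both calls sat near the fold threshold. That of Ccnd1 was lost without VWF replicate 1 (0.94) or 5 (0.95), and that of Myc without LPS replicate 3 (0.92). Ccnd2 and Ccne1 were lower with VWF, at -2.46 (SE 0.13, adjusted p = 2.82e-07) and -2.13 (SE 0.13, adjusted p = 8.06e-07). The difference for Cdkn1a was 0.0048 (SE 0.11, adjusted p = 0.974), and those for Cdk4, Cdk6 and Cdkn1b were 0.073 (SE 0.092), 0.014 (SE 0.12) and 0.18 (SE 0.13), none called.

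At 16 h 8 of 9 genes were called between the agonists, against 25.5% of all genes, 4 higher (11.1%) and 4 lower (14.5%) with VWF. Ccne1, Ccne2, Cdk4 and Myc were higher with VWF, at 1.29 (SE 0.12), 3.60 (SE 0.25), 1.22 (SE 0.086) and 1.76 (SE 0.23) on the log2 scale. Ccnd2, Ccnd3 and both inhibitors Cdkn1a and Cdkn1b were lower, at -3.24 (SE 0.30), -1.29 (SE 0.076), -1.42 (SE 0.10) and -1.07 (SE 0.085). The largest adjusted p among the 8 was 0.000104, for Myc. Ccnd1 was not called (-0.19 (SE 0.40, adjusted p = 0.704)). With library size scaling Ccnd3 (-0.84), Cdkn1a (-0.96) and Cdkn1b (-0.62) dropped under the fold threshold.

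The controls themselves differed between the times. At 16 h against 3.5 h 3 of 9 genes were called, against 9.08% of all genes, 2 higher (4.0%) and 1 lower (5.09%). Ccnd1 fell 2.84-fold (log2 fold change -1.51, SE 0.40, adjusted p = 0.0122), or by -1.26 without replicate 5, and with the replicate block it was not called (adjusted p = 0.056). Ccne1 rose 2.32-fold (log2 fold change 1.22, SE 0.15, adjusted p = 0.000196) and Ccne2 rose 2.85-fold (log2 fold change 1.51, SE 0.20, adjusted p = 0.000232).

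In VWF cultures 6 of 9 genes were called over the same interval, against 21.4% of all genes, 4 higher (9.15%) and 2 lower (12.2%). Ccnd1 at 1.20 (SE 0.33), Ccnd3 at 1.31 (SE 0.070), Ccne1 at 2.13 (SE 0.13) and Ccne2 at 3.22 (SE 0.20) rose, and Cdk6 at -2.18 (SE 0.15) and Cdkn1a at -2.42 (SE 0.10) fell. In LPS cultures 7 of 8 were called, against 28.1% of all genes, 3 higher (14.6%) and 4 lower (13.5%). Ccnd1 at 2.51 (SE 0.41), Ccnd3 at 2.53 (SE 0.090) and Cdkn1b at 1.23 (SE 0.13) rose. Ccnd2 at -1.19 (SE 0.12), Ccne1 at -1.29 (SE 0.11), Cdk6 at -1.79 (SE 0.14) and Cdkn1a at -1.002 (SE 0.11) fell. The call of Cdkn1a lay at the fold threshold and was lost without LPS replicate 2 (-0.994) or 3 (-0.94) of 3.5 h or 3 (-0.990) or 4 (-0.95) of 16 h. Ccne1 thus rose with time under VWF and fell under LPS.

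An interaction term tested whether each agonist's effect differed between 3.5 h and 16 h. For VWF 5 of 9 genes were called, against 13.5% of all genes, 3 higher (5.69%) and 2 lower (7.77%). The effect on Ccnd1 was higher at 16 h by 2.70 (SE 0.55, adjusted p = 0.000658) on the log2 scale, that on Ccne2 by 1.71 (SE 0.28) and that on Myc by 1.29 (SE 0.18). The effects on Cdkn1a and Cdk6 were lower at 16 h, at -3.01 (SE 0.16, adjusted p = 5.18e-11) and -1.56 (SE 0.24, adjusted p = 4.32e-05). For LPS 7 of 10 were called, against 26.3% of all genes, 2 higher (13.5%) and 5 lower (12.8%). Its effects on Ccnd1 at 4.03 (SE 0.62) and Ccnd3 at 1.98 (SE 0.16) were higher at 16 h. Those on Ccnd2 at -1.30 (SE 0.41), Ccne1 at -2.50 (SE 0.19), Ccne2 at -2.09 (SE 0.34), Cdk6 at -1.17 (SE 0.25) and Cdkn1a at -1.58 (SE 0.17) were lower. Without control replicate 5 at 16 h the interactions for Ccnd1 were 2.44 with VWF and 3.79 with LPS, and that for Cdk6 was -1.71 with VWF. The effect of LPS on Myc was not shown to differ between the times (0.62 (SE 0.34, adjusted p = 0.144)).

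The other genes of the pathway were counted over lists. The shares to read these counts against are those of all genes, 14.7% and 8.71% called with VWF at 3.5 h and 16 h and 24.5% and 27.6% with LPS. List genes passed the filter by the same rule as all others, so a gene under 10 TPM in every culture of one group was tested only where the other group reached it. Values given with an SE for genes of the lists are log2 fold changes. Of the other CDK inhibitors VWF called 1 of 4 tested lower at 3.5 h and 3 of 4 lower at 16 h. LPS called 1 higher and 1 lower at 3.5 h, and 1 higher and 2 lower at 16 h. Cdkn2c (p18), an inhibitor of CDK4 and CDK6, fell in all 4 comparisons, at -1.41 (SE 0.17) and -1.24 (SE 0.16) with VWF and at -1.68 (SE 0.17) and -3.48 (SE 0.16) with LPS at 3.5 h and 16 h. Cdkn2a fell at 16 h with VWF at -1.64 (SE 0.38) and LPS at -1.81 (SE 0.50). It was low throughout, at 5.06 ± 3.27 CPM in controls, 1.76 ± 0.493 CPM with VWF and 1.49 ± 0.702 CPM with LPS. It entered both comparisons through the controls alone. Cdkn2d rose with LPS at 1.28 (SE 0.18) and 1.57 (SE 0.19).

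Among 13 pocket proteins and E2F factors VWF called 1 of 8 tested lower at 3.5 h and 0 of 10 at 16 h. By adjusted p alone the number higher at 16 h was 1 (13.1% of all genes) and the number lower 0 (14.7%). LPS called 2 higher and 2 lower of 9 at 3.5 h and 3 lower of 10 at 16 h. E2f2, an activator of S phase genes, was at 11.8 ± 1.98 CPM in controls at 3.5 h, at 3.17 ± 1.30 CPM with VWF and at 0.812 ± 0.328 CPM with LPS. It fell with VWF at -1.98 (SE 0.26) and with LPS at -3.92 (SE 0.30), and at 16 h with LPS at -3.44 (SE 0.15). Rbl1 (p107) rose with LPS at 3.5 h at 1.76 (SE 0.16), and E2f6 fell at -1.60 (SE 0.16) and -1.49 (SE 0.22). Of 14 other G1/S regulators VWF called 1 and 1 of 11 lower at 3.5 h and 16 h, and LPS 3 and 5 of 11 lower. The S phase cyclin Ccna2 fell with VWF at 16 h at -1.37 (SE 0.19) and with LPS at -1.17 (SE 0.21) and -6.75 (SE 0.46). At 16 h Ccna2 was at 65.08 ± 18.02 CPM in controls and at only 0.622 ± 0.364 CPM with LPS. Cks1b, a cofactor of cyclin-dependent kinases, fell with LPS at 16 h at -3.38 (SE 0.37). Fbxo31, which takes part in cyclin D1 turnover, fell with VWF at 3.5 h at -1.14 (SE 0.16) and with LPS at -2.64 (SE 0.19) and -1.31 (SE 0.12).

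In the network around Myc, Mxd1, which competes with MYC for MAX, was at 4.22 ± 0.676 CPM in controls at 3.5 h, at 29.9 ± 5.49 CPM with VWF and at 109 ± 19.9 CPM with LPS. It rose with VWF at 2.74 (SE 0.16) and with LPS at 4.63 (SE 0.16), and with LPS at 16 h at 5.81 (SE 0.24), and entered each of these comparisons through the treated cultures alone. Mnt, another repressor of the network, fell at 3.5 h with VWF at -2.73 (SE 0.24) and LPS at -3.67 (SE 0.22). Its level was 28.3 ± 7.75 CPM in controls at 3.5 h, 4.48 ± 1.31 CPM with VWF and 2.28 ± 0.395 CPM with LPS. Mycl, a paralog of Myc, rose with LPS at 3.5 h from 0.520 ± 0.221 to 17.01 ± 2.40 CPM, at 4.97 (SE 0.30), and passed the filter only through the LPS cultures. With VWF at 3.5 h it was at 5.35 ± 0.775 CPM, under 10 TPM and not tested. Of the 12 network genes VWF called 1 higher and 1 lower of 8 tested at 3.5 h and 1 lower of 8 at 16 h, and LPS 3 higher and 1 lower of 9 at 3.5 h and 3 higher and 2 lower of 9 at 16 h.

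Of the known MYC targets, mostly genes of ribosome assembly, VWF at 3.5 h called 1 higher and 0 lower of 19, with a median log2 fold change of -0.051. By adjusted p alone 3 were higher and 6 lower. The share of all genes under that rule at 3.5 h is not given here, so this count has no background to be read against. VWF at 16 h called 0 of 16 (median 0.27), with 2 higher and 0 lower by adjusted p alone, against 13.1% and 14.7% of all genes. LPS called 1 higher and 4 lower of 19 at 3.5 h (median -0.39) and 10 lower of 16 at 16 h (median -1.17). The median over all genes tested lay between -0.030 and -0.0088 in these 4 comparisons. Dkc1, Ppan and Srm fell the most, at -2.05 (SE 0.15), -1.91 (SE 0.24) and -1.85 (SE 0.18) with LPS at 16 h. Of p53 targets other than Cdkn1a VWF called 2 higher and 2 lower of 14 at 3.5 h and 2 lower of 15 at 16 h, and LPS 3 higher and 3 lower of 14 at 3.5 h and 3 higher and 1 lower of 14 at 16 h. Fas, a death receptor, rose at 3.5 h with VWF at 2.47 (SE 0.16) and LPS at 2.37 (SE 0.15), and Bbc3 rose at 1.22 (SE 0.17) and 2.45 (SE 0.17). Sesn1 fell at -2.16 (SE 0.10) and -4.39 (SE 0.18).

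Of the S phase genes VWF at 16 h called 0 of 19 (median 0.40), with 10 higher and 1 lower by adjusted p alone, against 13.1% and 14.7% of all genes. LPS called 15 of 18 lower (median -2.71). Rrm2 and Tk1, which supply nucleotides, and the helicase subunit Mcm7 fell with LPS at -4.92 (SE 0.28), -4.59 (SE 0.37) and -3.63 (SE 0.19). Of the mitosis genes at 16 h VWF called 9 of 14 lower (median -1.15) and LPS 14 of 14 lower (median -4.67). Plk1, Cdc20 and Top2a fell with LPS at -5.95 (SE 0.33), -5.86 (SE 0.28) and -5.64 (SE 0.27). Between the agonists at 16 h 17 of 19 S phase and 12 of 12 mitosis genes were higher with VWF, against 11.1% of all genes. With LPS at 16 h Plk1, Cdc20 and Top2a were at 0.518, 0.646 and 1.96 CPM. A gene under 10 TPM in every LPS culture was tested only where the other group reached that level. The direction of the counts with LPS was thus in part set by the filter. At 3.5 h VWF called 2 of 14 S phase and 1 of 14 mitosis genes lower, and LPS 3 and 7 of 14. Over time 11 of 18 S phase genes rose in controls (4.0% of all genes), 18 of 19 rose in VWF cultures (9.15%), and 8 of 12 fell in LPS cultures (13.5%).

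**Figure D4:**
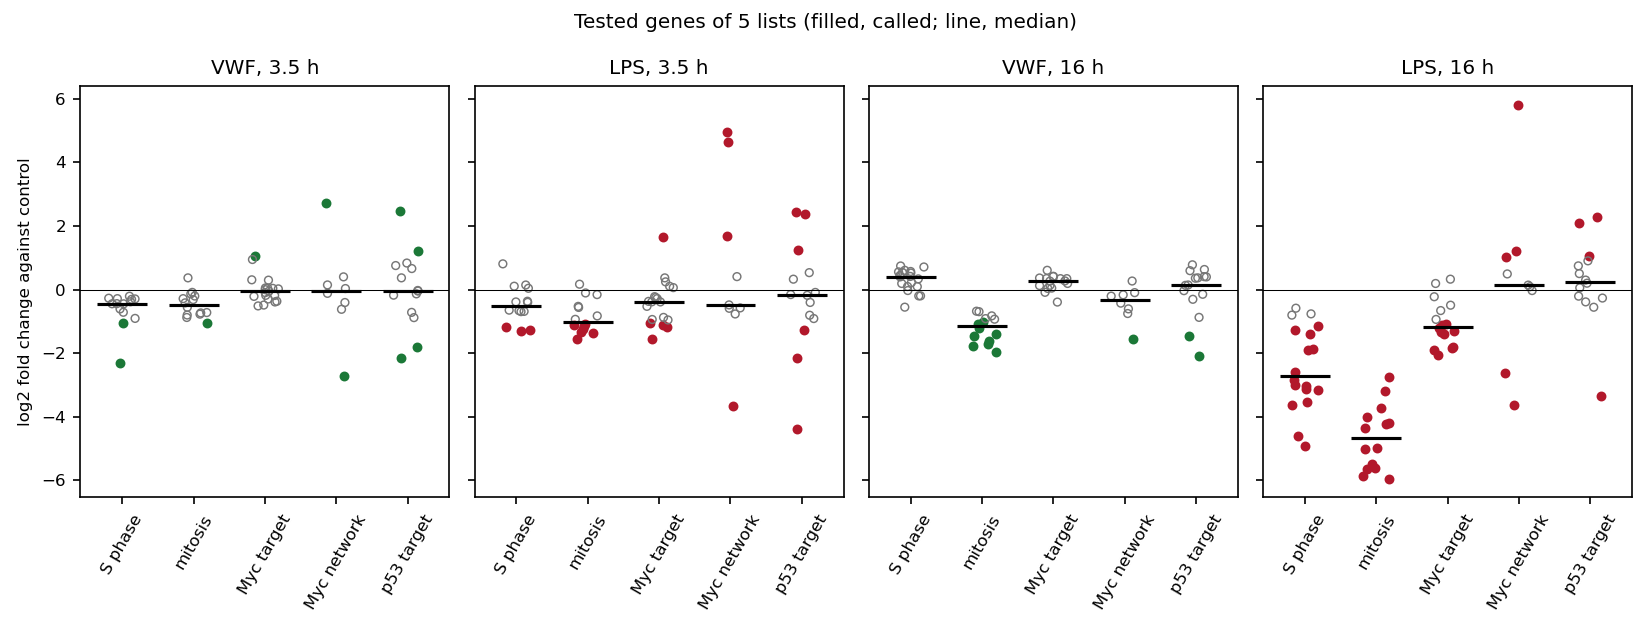
Log2 fold change against control of the tested genes of 5 lists, with a panel per treatment and time, filled points for called genes, open points for the rest and a line at the list median. With LPS at 16 h the S phase and mitosis medians lie at -2.71 and -4.67, and with VWF at 16 h at 0.40 and -1.15.

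The genes with the most similar pattern were ranked by Pearson's r of log2 CPM over the 28 cultures among 8867 genes. The cultures share treatment groups, so r is a description and was not tested. For Ccnd1 they were Zfand2a (r = 0.97), Dgkz (0.95) and Cic (0.95). For Cdkn1a they were Nod2, Bcl2a1d and the cytokine subunit gene Il12b (0.98, 0.98 and 0.98). Il12b was at 0.0443 ± 0.0250 CPM in controls at 3.5 h, at 114 ± 38.5 CPM with VWF and at 39.3 ± 12.1 CPM with LPS. For Myc they were S1pr1, Cdk18 and Marveld1 (0.94 for each), and for Ccne1 they were Akr1b3 (0.85), Rfc3 (0.84) and Washc1 (0.83). Ranked over the 6 group means instead, 1 of the 3 genes was shared for Ccnd1 and for Cdkn1a, and 0 for Ccne1 and Myc.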

How the data were processed

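Per the submitters' processing notes, reads were mapped to GRCm38 (mm10) with STAR. The authors deposited raw whole-number counts per gene for 54532 genes in 28 cultures, and neither the STAR version nor the strand setting of the counting was stated in the sources at hand. Groups were read from the sample labels.

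From these counts TPM was computed with GENCODE M21 exon lengths, known for 30143 of 30159 genes with counts, and CPM with TMM factors over all 28 cultures. The length of a gene was that of all its annotated exons merged. TPM was not scaled by TMM factors, so TPM of different groups is not on the scale of the tests. Tests used edgeR 4.0.16 in R 4.3.3 (quasi-likelihood, robust, TMM, Benjamini-Hochberg adjustment over every gene tested) on the groups of each of 11 comparisons. The study's own filter of 10 TPM and its thresholds were kept, and DESeq2 (1.42.0), its tool, was an alternative. The code was tested on simulated data. Depth was between 41131209 and 77699206 counts per culture. No 2 cultures of the same group were duplicates (chi-square per degree of freedom at least 17.1 over the 52 within-group pairs, the only pairs compared).

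The 10 genes and all lists were chosen with earlier results of these data known. From each list at most the 3 called genes with the largest change against control are named, and for Ccnd1, Ccne1, Cdkn1a and Myc the 3 genes of highest r. Replicate numbers were taken to pair the cultures where every correlation of deviations was over 0.1. Only the comparison of the agonists at 16 h met this rule, with 0.16 to 0.78 in 4 pairs. In the other comparisons single pairs ranged from -0.67 to 0.68, so a pairing of some cultures there is not excluded. The main tests, that of the agonists at 16 h included, were fitted without a replicate block. Other settings tried were size factors by median of ratios, scaling by library size, filterByExpr, no filter, a filter set over all 28 cultures, a joint fit, a replicate block, dropping the fold threshold, and omission of single cultures.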

Additional observations from a re-analysis of the deposited data

Results flagged for a closer look

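Of 60 combinations of gene and group, 4 held a culture far from the others of its group by Dixon's criterion, and chance flags about 1 in 20 groups. Ccnd3 in control replicate 5 at 16 h was at 34.997 CPM, and the other 4 lay between 55.2 and 59.4 CPM. In LPS replicate 4 at 16 h Ccne2 was at 3.53 CPM against 1.73 to 1.80 CPM in the other 3, and Cdk4 was at 55.1 CPM against 63.7 to 65.2 CPM. Cdk4 in VWF replicate 5 at 3.5 h was at 80.3 CPM, and the other 4 lay between 94.0 and 99.0 CPM. The low culture for Ccnd3 is the one that also stood apart on the second principal component.

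The effect of treatment differed between 3.5 h and 16 h, by the interaction term, for 5 genes with VWF and 7 with LPS, with the differences (16 h minus 3.5 h, log2) given here. With VWF they were 2.70 for Ccnd1, 1.71 for Ccne2, 1.29 for Myc, -1.56 for Cdk6 and -3.01 for Cdkn1a. With LPS they were 4.03 for Ccnd1, 1.98 for Ccnd3, -1.17 for Cdk6, -1.30 for Ccnd2, -1.58 for Cdkn1a, -2.09 for Ccne2 and -2.50 for Ccne1.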

How the results depend on the processing

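Without a fold threshold 8 genes were called for VWF at 3.5 h and 5 at 16 h, 8 for controls over time and 9 for the VWF interaction. In each of these comparisons 9 genes were tested. Under that rule 13.1% of all genes were higher and 14.7% lower with VWF at 16 h. For the other comparisons the share of all genes is not given here, so their counts have no background to be read against. Library size scaling gave 2 for VWF at 16 h and 5 between the agonists at 16 h, and it moved the median of all genes to -0.22 for VWF at 3.5 h, -0.55 for LPS at 3.5 h, -0.59 for LPS at 16 h, 0.32 and 0.46 between the agonists at 3.5 h and 16 h, 0.11 for VWF over time and 0.14 for the VWF interaction. With that scaling LPS at 16 h no longer called Ccnd3 (0.83) and called Ccne1 (-1.49) and Cdk6 (-1.12) lower. At 3.5 h LPS then also called Ccnd3 (-1.10) and Cdk4 (-1.11) lower. Leaving out single cultures gave 0 to 2 for VWF at 16 h, with 2 without control replicate 5 and 1 without VWF replicate 3. For LPS at 16 h it gave 5 to 6, because Ccnd2 was not tested without LPS replicate 1. The VWF interaction for Ccne1 was called without control replicate 3 of 3.5 h (1.02). DESeq2 gave the same number of called genes in every comparison. With the replicate block, for cultures that share a number, Ccnd1 was no longer called between the agonists at 3.5 h (0.90) or in controls over time (-1.56), nor Cdkn1a in LPS cultures over time (-0.997), and no other call changed.

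The differences that changed sign had not been called. With library size scaling they were those of Cdkn1b with VWF at 3.5 h (-0.014), with LPS at 3.5 h (-0.49) and 16 h (-0.069) and with VWF over time (0.069), of Ccnd3 with VWF at 16 h (-0.013) and of Ccnd1 between the agonists at 16 h (0.25). With filterByExpr and with no filter they were those of Ccne2 with VWF at 16 h (0.018 and 0.028) and Cdk4 in controls over time (-0.0093 and -0.016). Between the agonists at 3.5 h Cdk6 gave -0.0019 with DESeq2 and -0.0019 with median-of-ratios factors, -0.047 with filterByExpr, -0.036 with no filter, -0.014 with the filter set over all 28 cultures and -0.053 with the replicate block. Cdkn1a gave -0.012, -0.012, -0.051, -0.039, -0.022 and -0.0050 in that order, and -0.0050 with all groups in 1 fit. Leaving out single cultures, the range was -0.044 to 0.12 for Ccnd3 and -0.10 to 0.0035 for Ccne2 with VWF at 16 h, -0.015 to 0.13 for Cdkn1b with LPS at 3.5 h, -0.079 to 0.081 for Cdk6 and -0.072 to 0.070 for Cdkn1a between the agonists at 3.5 h, -0.47 to 0.018 for Ccnd1 between them at 16 h and -0.067 to 0.054 for Cdkn1b with VWF over time. The cause of these changes was not tested. The number of all genes called was 1.65 to 2.10 times the main number with filterByExpr, 1.57 to 2.35 times with no filter and 1.85 to 4.53 times with no fold threshold. With library size scaling it was 0.946 to 1.45 times the main number.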

Other observations

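Ccnd1 varied more between cultures of a group than most of the other genes, from 41.2 to 164 CPM with LPS at 16 h and from 43.9 to 142 CPM with VWF at 16 h, and replicate 4 was the lowest in both groups. This did not hold in controls, where replicate 4 was the highest at 3.5 h (310.3 CPM) and replicate 5 the lowest at 16 h (19.4 CPM). The fibroblast gene Col1a2 was highest in replicate 1 of all 6 groups, which was noticed after the values had been seen. What the replicate number stands for is not given.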
